A study of Mus musculus with 4 samples.

Results

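Stromal cells were a small set among the ChAT-eGFP+ cells that had been sorted from mouse IWAT, the inguinal white fat under the skin, after digestion to its stromal vascular fraction (SVF). A cell was counted as stromal when it held at least 2 UMIs of Dcn, which encodes the matrix proteoglycan decorin, at least 2 UMIs of the collagen genes Col1a2 and Col3a1 together, and no UMI of Cd3e, Cd79a, C1qa or Ptprc, which mark T cells, B cells, macrophages and all leukocytes. A UMI is a unique molecular identifier and stands for 1 captured transcript. By this rule 86 cells were stromal, of 21249 cells that passed the limits on genes and mitochondrial UMIs and of 26654 cells in the files. These 7 genes chose the cells, so their values are given as a description only.

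The cells came from male ChAT BAC-eGFP mice, in which eGFP is driven by Chat regulatory sequence on a bacterial artificial chromosome. Mice aged 5 weeks first spent 3 weeks at 30 °C, which is thermoneutral for mice, after which they either stayed there or went to 4 °C for 4 h. Mice of the 4 °C group spent a day at room temperature before the cold, so the cold and that day cannot be told apart. There were 2 libraries per temperature, each from 4 pooled mice, and the 3′ ends of transcripts were sequenced after live eGFP+ single cells had been sorted. Because cells were sorted for eGFP, the stromal cells described here are those that passed the eGFP gate and are not a sample of all stromal cells of the depot.

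Stromal cells of adipose tissue include the progenitors from which new adipocytes arise. In mouse subcutaneous fat, Dpp4+ Pi16+ progenitors lie in the fibrous interstitium around the fat lobules, and Icam1+ preadipocytes lie within the lobules near vessels, express Pparg targets such as Fabp4 and Lpl, and are closer to becoming adipocytes. A further group that carries the tissue factor CD142, encoded by F3, has been described as a regulator of adipogenesis. All of these cells are marked by Pdgfra, the platelet-derived growth factor receptor of mesenchymal cells, and secrete collagens, proteoglycans and complement factors.

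The 4 libraries held 22 and 22 stromal cells at 30 °C and 24 and 18 at 4 °C. Of the cells kept in 30 °C replicate 1 they made up 0.424% (95% exact binomial interval 0.266 to 0.641), and 0.408% (interval 0.256 to 0.618) in replicate 2. The shares in the 4 °C libraries were 0.451% in replicate 1, with an interval of 0.289 to 0.670, and 0.337% in replicate 2, with an interval of 0.200 to 0.532. These intervals cover counting error only. The means were 0.416% ± 0.0110 (SD, n = 2) at 30 °C and 0.394% ± 0.0805 (SD, n = 2) at 4 °C, and the 4 °C libraries lay on both sides of the 30 °C libraries (two-sided exact permutation test, p = 1, where the smallest p that 2 against 2 libraries allow is 0.33). No barcode of a stromal cell occurred in more than 1 library, although 10 to 18 barcodes of all cells were shared between any 2 libraries. Scrublet, a caller of doublets, marked 531 of the 21249 cells kept (2.50%) and 0 of the 86 stromal cells.

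The 86 cells held 711572 UMIs, of 76058112 to 84468931 UMIs per library over all cells. The stromal UMIs per library were 131474 and 179479 at 30 °C and 253670 and 146949 at 4 °C. Depth differed among the cells, from 501 to 23998 UMIs. The median was 3657.5 and 1933 UMIs in the libraries at 30 °C, and 12200.5 and 10573 in those at 4 °C, whereas the median over all cells kept was 7517.5 to 8064.5 in every library. Cells with at least 2000 UMIs numbered 12 and 11 at 30 °C and 18 and 13 at 4 °C. They made up 52.3% ± 3.21 (SD, n = 2) of stromal cells at 30 °C and 73.6% ± 1.96 (SD, n = 2) at 4 °C, without overlap (two-sided exact permutation test, p = 0.33, the smallest possible). The 32 cells with fewer UMIs had a median of 728 UMIs, and the deeper cells held between 94.3% and 97.7% of the stromal UMIs of each library. The sums below therefore rest on 54 cells for the most part. With the deeper cells alone 17 of the 25 temperature calls given below were kept, and Ifi203, Thbs1, Steap4, Arid5b, Lgals3, Zbtb16, Cilp and Id2 were not called. Among these, Steap4 and Id2 had log2 fold changes about as large as with all stromal cells, as given below.

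**Figure D1:**
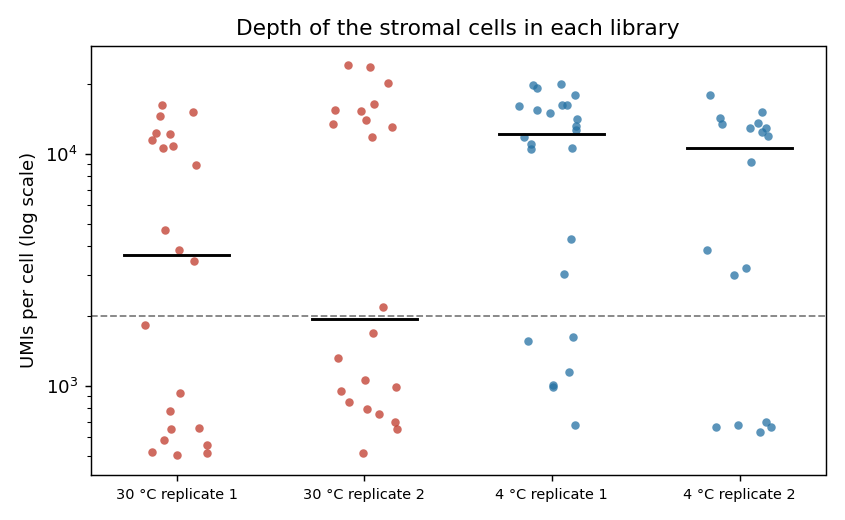
UMIs per stromal cell on a log axis, 1 point per cell, for the 2 libraries at 30 °C (red) and the 2 at 4 °C (blue); black bars are medians and the dashed line is at 2000 UMIs. Cells at or above the line make up more of the cells in the libraries at 4 °C (18 of 24 and 13 of 18) than in those at 30 °C (12 of 22 and 11 of 22).

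The thresholds of the rule lay in a thinly filled range. Of the 86 cells, 4 held exactly 2 Dcn UMIs and 2 held 3, while 2 cells with 1 Dcn UMI fell outside. No stromal cell held exactly 2 UMIs of the collagen pair, 3 cells with 1 such UMI fell outside, and 23 cells with at least 2 collagen UMIs held no Dcn. The median stromal cell held 97.5 Dcn UMIs and the highest 549. The exclusion by immune genes removed 31 of 117 cells with Dcn and collagen, 6 and 4 at 30 °C and 12 and 9 at 4 °C. Of these, 21 held Ptprc, 16 Cd79a, 6 C1qa and 4 Cd3e.

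The label of the cells was set beside markers that the rule had not used. Of these, Gsn and Clec3b had been listed with the genes of the rule as markers of these cells, so they are not an independent check. Gsn, which encodes the actin-severing protein gelsolin, reached 19534 CPM, which counts UMIs per 1000000 UMIs of the stromal cells, against 55.1 in the other cells kept, per 1000000 of theirs. Clec3b, which encodes tetranectin, reached 2792 against 4.61, and Pdgfra 559 against 0.783. Pdgfra was found in 58 of the 86 cells and in 0 of 9218 B cells, defined by Cd79a, which allows a share of B cells with a UMI of up to 0.0325%. Among the genes of the rule, Col3a1 stood at 17522 CPM, Dcn at 13914 and Col1a2 at 10942. Levels are not scaled to transcript length, since counted molecules came from 3′ ends.

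Markers of other cell types were scarce. The whole B cell list of 7 genes held 110 UMIs in the 86 cells, with Ighm highest at 66 and Cd79a at 0 by the rule. The macrophage list of 7 genes held 6 UMIs, with C1qc and Cd68 at 0, and C1qa at 0 by the rule. The T cell list of 5 genes, with Cd3e at 0 by the rule, held 26, the plasma cell list of 3 genes 102 and the epithelial list of 3 genes 1. Of the lymphatic endothelial list 1 UMI was found, with Lyve1, Mmrn1, Flt4 and Cldn5 at 0, and the erythroid list was at 0. The mural list held 39 UMIs, highest for Kcnj8 at 16 and with Rgs5 at 0, and the mesothelial list 17, of which 13 lay in a single cell. The list for lymph node reticular cells held 188, of which 110 were Pdpn and 58 Cxcl13, a chemokine of lymphoid follicles, with Ccl21a and Madcam1 at 0. Cxcl13 lay in 11 cells, the highest with 21 UMIs, and 8 of the 86 cells held at least 2 UMIs of Ccl19, Ccl21a and Cxcl13 together. Without those 8 cells 20 of the 25 temperature calls given below were kept, and 5 were not called. Lgals3 moved from a log2 fold change of -1.73 to -0.97 (edgeR, adjusted p = 0.364). Steap4, Id2, Thbs1 and Arid5b kept log2 fold changes of 2.33, 2.16, -4.48 and -2.51, beside 2.36, 2.28, -4.52 and -2.62 with those cells (adjusted p = 0.0596, 0.0709, 0.0595 and 0.0596 without them).

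In 2 further lists most UMIs lay in a single cell. A cell of 30 °C replicate 1 with 16155 UMIs held 39 of the 49 UMIs of the blood endothelial list, and a cell of 4 °C replicate 1 with 10608 UMIs held 105 of the 112 UMIs of the Schwann cell list. These cells are treated again below where they bear on a gene. Immunoglobulin transcripts in the stromal cells stood at 1.77% and 1.41% of their level in the other cells at 30 °C and at 1.07% and 1.62% at 4 °C. Whether these UMIs came from free RNA in the droplets was not tested.

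Genes of mature adipocytes were near 0. Adipoq, Lep, Plin1 and Cidec held no UMI in the 86 cells, nor did the thermogenic genes Ucp1 and Cidea, and 0 of 711572 UMIs allows up to 4.22 CPM. Pparg, the master regulator of adipogenesis, held 4 UMIs. Chat, which encodes choline acetyltransferase and whose regulatory sequence drives eGFP, held 0 UMIs in the 86 cells sorted for that eGFP, and 18 of the 21 genes of the cholinergic list were at 0. The libraries' gene table holds no row for eGFP, so reporter transcripts were not analysed here.

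Among the 54 deeper cells, the interstitial and the committed progenitor genes lay for the most part in different cells. Each cell's UMIs were added over a list of 9 interstitial progenitor genes (Dpp4, Pi16, Cd55, Anxa3, Sema3c, Wnt2, Dact2, Bmp7 and Limch1) and over a list of 12 committed preadipocyte genes (among them Fabp4, Lpl, Cd36, Plin2, Col15a1, Col4a1, Col4a2 and Cxcl14). In 29 cells the interstitial sum was higher, in 24 the committed sum was higher, and in 1 cell, the one with Schwann cell genes, both were equal. These names describe which list led in a cell and not a type, and 4 of the 54 cells had sums within 2-fold of each other. The interstitial list had a median of 79.1 UMIs per 10000 in the interstitial-leaning cells and 0.920 in the committed-leaning cells, and the committed list 7.77 and 101.

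**Figure D2:**
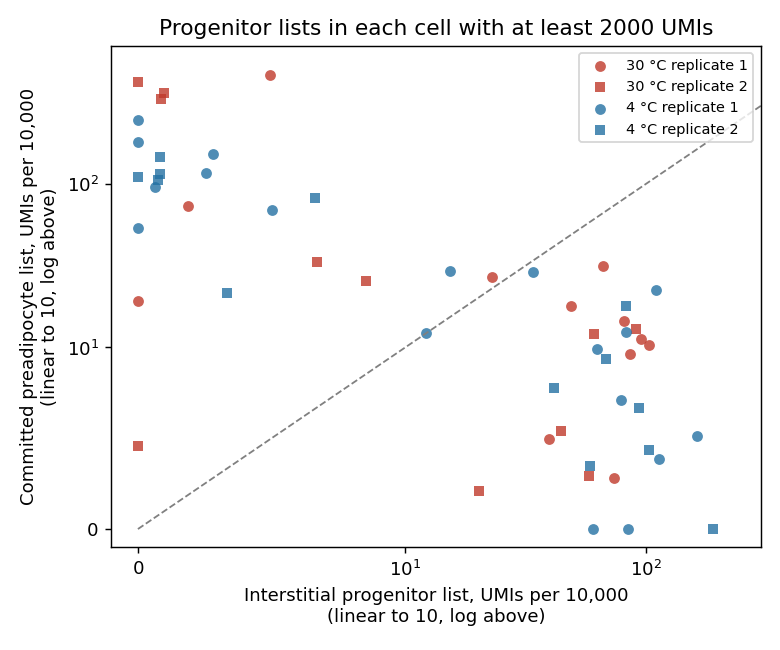
UMIs of the interstitial progenitor list (x) and of the committed preadipocyte list (y) per 10,000 UMIs in each of the 54 cells with at least 2000 UMIs, on axes linear to 10 and log above; colour gives the temperature and marker shape the replicate, and the dashed line marks equal sums. The 29 cells below the line and the 24 above it form separate arms, each with cells of all 4 libraries.

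Both kinds of cells occurred in every library. The interstitial-leaning cells numbered 8 and 5 at 30 °C and 9 and 7 at 4 °C, and the committed-leaning cells 4 and 6 at 30 °C and 8 and 6 at 4 °C. The interstitial-leaning share of the deeper cells was 56.1% ± 15 (SD, n = 2) at 30 °C and 51.9% ± 2.72 (SD, n = 2) at 4 °C, and the ranges overlapped (two-sided exact permutation test, p = 1). By UMIs, which the sums below use, the interstitial-leaning cells held 80135 and 90967 at 30 °C and 104715 and 59291 at 4 °C. The committed-leaning cells held 43827 and 78253 at 30 °C and 131363 and 84318 at 4 °C. The interstitial-leaning cells thus held more in both 30 °C libraries and the committed-leaning cells more in both 4 °C libraries. Of the calls given below, interstitial-leaning cells alone kept 14 of 19 tested and committed-leaning cells 0 of 14. Of the 32 shallow cells, 26 held at least 1 UMI of either list, but at a median of 728 UMIs the lean of a single cell was not determinable.

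Within each list, members differed in how far they separated these cells, which is a description because the lists set the split. Pi16, a peptidase inhibitor of the interstitial progenitors, held 1444 UMIs in the interstitial-leaning and 48 in the committed-leaning cells. Dpp4, the surface dipeptidase after which these progenitors are named, held 186 and 11, and Anxa3, an annexin, 403 and 24. In the other direction, Fabp4, the fatty acid carrier of adipocytes, held 1 and 1356 UMIs, 696 of them in the cell with 39 blood endothelial UMIs, Col15a1, a vascular basement membrane collagen, 5 and 299, and Lpl, the lipase that frees fatty acids from lipoproteins, 184 and 1471. In 30 °C replicate 1, 2 of the 4 committed-leaning cells held at least 5 UMIs of the blood endothelial list. In the interstitial-leaning cells Lpl stood at 549 CPM, against 58.7 in the other cells kept, and Fabp4 at 2.98 against 164.

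Genes outside both lists followed the same split. Over 2018 genes with at least 50 UMIs in the deeper cells, 38 were at least 4-fold higher in the interstitial-leaning cells over all libraries together, higher there in each of the 4 libraries, and without a cell that held 25% or more of the UMIs, and 30 were so in the committed-leaning cells. On the committed side stood Sparcl1, a matricellular relative of Sparc, with 346 UMIs against 0 (at least 114-fold higher, with 3 UMIs as the floor), and Apoe, which carries lipid, at 1448 against 29.8 CPM. Cxcl12, the chemokine that holds haematopoietic cells in their niches, reached 725 against 26.9 CPM, Bgn, which encodes biglycan, 2656 against 278, and Vcam1, a leukocyte adhesion molecule, 201 against 17.9. F3 and Cygb of the CD142 list were also higher there, 207 against 23.9 CPM and 936 against 152, and the CD142 list as a whole had a median of 15.1 UMIs per 10000 in committed-leaning and 1.25 in interstitial-leaning cells.

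On the interstitial side stood Sbsn, which encodes suprabasin, at 504 against 14.8 CPM and Efhd1, a calcium-binding protein of mitochondria, with 90 UMIs against 0 (at least 30.2-fold higher). The secreted WNT modulator Sfrp2 stood at 1931 against 113 CPM but was not among the 38, since 1 cell held 216 UMIs beside 647 in all interstitial-leaning cells. Fn1, which encodes fibronectin, stood at 7210 against 1371, Edn1, the vasoconstrictor endothelin, at 283 against 11.8, and Procr, the endothelial protein C receptor, at 412 against 59.2. Genes of the pan progenitor list separated less. Pdgfra stood at 480 CPM in interstitial-leaning and 675 in committed-leaning cells, Cd34 at 1080 and 500.4, and Ly6a, which encodes SCA-1, at 3679 and 1830.

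The comparison of 4 °C with 30 °C asked which genes of the stromal cells changed after the acute cold. UMIs of the stromal cells were summed per library and tested with edgeR's quasi-likelihood test with Benjamini-Hochberg adjustment, at an adjusted p of 0.05. A sum does not tell a change in the number of cells that use a gene from a change in the level per cell. Of 2618 genes tested, 25 were called (0.955%), 5 of them higher at 4 °C (0.191%) and 20 lower (0.764%). In all 25 the libraries of the 2 temperatures did not overlap, as was so of 18.7% of all genes tested in the higher direction and of 21.7% in the lower. The median log2 fold change over all genes tested was -0.003, and 309 genes had an unadjusted p under 0.05.

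The progenitor lists held 1 called gene, and with 0.955% of all genes called such counts do not set these lists apart. None of the 8 tested genes of the pan progenitor list, of the 6 tested of the interstitial list or of the 3 tested of the CD142 list passed, and of the 9 tested committed preadipocyte genes only Fabp4 did. The median log2 fold changes of these lists were 0.10, -0.11, 0.63 and 0.01, in the order named with the committed list last, beside -0.003 over all genes.

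Pdgfra stood at 563 and 529 CPM at 30 °C and 619 and 490 at 4 °C. The 4 °C values lay on both sides of the 30 °C values, and the log2 fold change was 0.04 ± 0.26 (SE; edgeR, adjusted p = 0.972). Pi16 (mm10, chr17:29317680-29330593) stood at 3012 and 1543 CPM at 30 °C and 2409 and 1694 at 4 °C, and Dpp4 (chr2:62330073-62412231) at 365 and 251 CPM and at 280 and 293. For both, the 4 °C libraries lay between the 30 °C libraries. Lpl (chr8:68880491-68907448) varied within a temperature, with 890 and 3505 CPM at 30 °C and 2669 and 1674 at 4 °C, and its log2 fold change was 0.01 ± 0.47 (SE; edgeR, adjusted p = 0.995).

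Some genes of the committed and basement membrane lists were low in a single library. In 30 °C replicate 1, where 4 of the 12 deeper cells leaned to the committed list, Col15a1 stood at 60.8 CPM, against 485 in 30 °C replicate 2 and 603 and 442 in the 4 °C libraries. Col4a1 stood at 472 CPM there against 1839, 1581 and 1422, and Cxcl14, a chemokine, at 83.7 against 808, 631 and 857. None of these genes was called, the smallest adjusted p of the 3 being 0.620 for Col15a1. Col4a2 and Nid2 of the basement membrane list and Plin2 and Lpl of the committed list also had their lowest value there, but not all members did. Nid1, which encodes the basement membrane linker nidogen, stood at 1704 CPM against 1828 in 30 °C replicate 2 and 1265 and 1647 in the 4 °C libraries. Fabp4 and Cd36 were highest in 30 °C replicate 1, where each gene had all of its UMIs in a single cell.

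**Figure D3:**
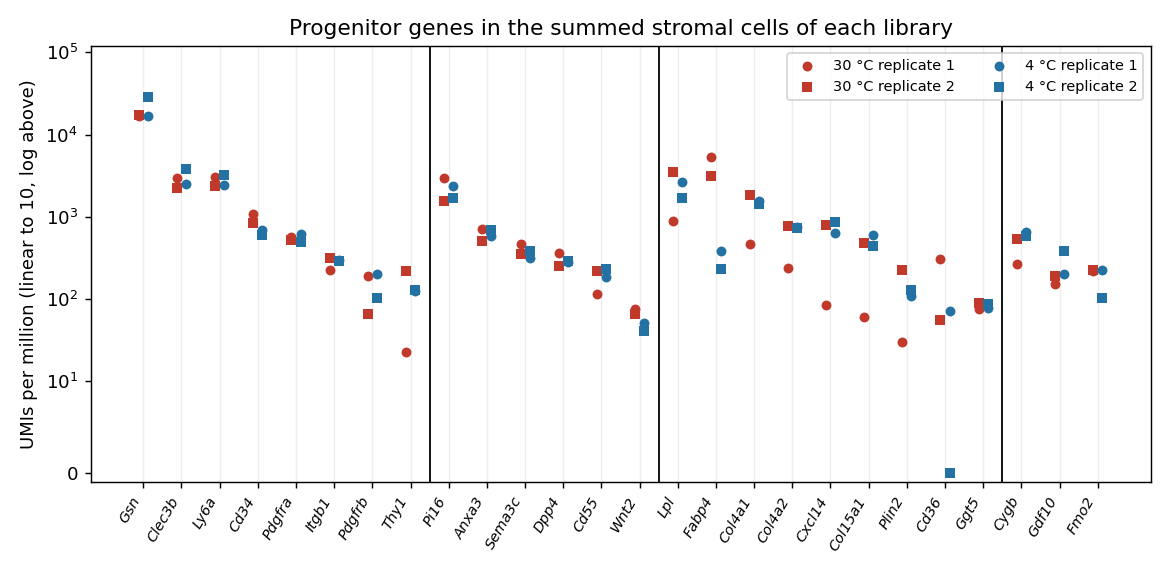
CPM of the stromal cells in each library, on an axis linear to 10 and log above, for the tested genes of the pan progenitor, interstitial progenitor, committed preadipocyte and CD142 lists, which black lines separate in this order; red is 30 °C, blue 4 °C, circles replicate 1 and squares replicate 2. Points of the 2 temperatures overlap for most genes, and Fabp4 shows 30 °C libraries at 5294 and 3170 above 4 °C libraries at 382 and 231.

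The share of cells with a UMI was compared at equal depth. In 77 cells thinned to 654 UMIs each, the 10th percentile of stromal depth, Pdgfra was found in 30.6% ± 0.884 (SD, n = 2) of cells at 30 °C and 20.5% ± 12.3 at 4 °C, and in 59.1% ± 0 and 75.7% ± 4.91 with all UMIs, so the order of the temperatures depended on depth (each two-sided exact permutation test, p = 0.33, the smallest possible). Pi16 was found in 46.2% ± 23.0 and 44.4% ± 3.81 of thinned cells (exact permutation test, p = 1). In B cells, with a median of 8411 UMIs, unthinned shares were 0% for Pdgfra, 0.0759% for Pi16 and 0.553% for Lpl, but 21.2% for Dpp4, so single Dpp4 UMIs were not specific to stromal cells.

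Among the lists, the one with the most called genes was that of 18 targets of glucocorticoid hormone, the adrenal steroid that acts through the receptor encoded by Nr3c1. Of 14 tested, 5 were lower at 4 °C and none was higher, beside 0.764% and 0.191% of all genes. All 14 had a log2 fold change below 0, as 1317 of the 2618 genes tested did, in 11 the 4 °C libraries lay below the 30 °C libraries, beside 21.7% of all genes tested, and the median was -1.84 beside -0.003 over all genes. The 5 were Tsc22d3, Ddit4, Klf9, Glul and Zbtb16, the last of which was named after its values were seen. The filter on low counts can be met by the 2 libraries of 1 temperature alone. Ddit4, with 18 and 31 UMIs at 30 °C and 1 and 1 at 4 °C, and Zbtb16, with 31 and 28 against 5 and 7, were low at 4 °C. The direction of members that enter through 30 °C alone is set by the filter and adds no support to the counts above.

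Tsc22d3 (chrX:140539528-140600659), which encodes the glucocorticoid-induced leucine zipper GILZ, held 102 and 120 UMIs at 30 °C and 17 and 11 at 4 °C. These were 776 and 669 CPM against 67.0 and 74.9, a wide separation with little spread within either temperature. The log2 fold change was -3.33 ± 0.32 (SE; edgeR, adjusted p = 0.00121). With the deeper cells thinned to 2000 UMIs, 10 of 12 and 8 of 11 cells held a Tsc22d3 UMI at 30 °C and 2 of 18 and 4 of 13 at 4 °C, and no cell held over 36.4% of a library's UMIs. In the interstitial-leaning cells alone its log2 fold change was -3.44 (edgeR, adjusted p = 0.00304), and in the committed-leaning cells alone it was -3.39 and was not called (adjusted p = 0.0773). Other cells also express the gene, 77.6% of B cells holding a UMI, and it stood at 380 and 340 CPM in the other cells at 30 °C and at 109 and 119 at 4 °C.

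Ddit4 (chr10:59949669-59951834), which encodes the mTORC1 inhibitor REDD1, held 18 and 31 UMIs at 30 °C and 1 and 1 at 4 °C, and its log2 fold change was -4.77 ± 0.60 (SE; edgeR, adjusted p = 0.00602). Klf9 (chr19:23141226-23168134), a Krüppel-like transcription factor, stood at 844 and 669 CPM at 30 °C and 240 and 245 at 4 °C, and the log2 fold change was -1.62 ± 0.28 (SE; edgeR, adjusted p = 0.0292). Glul, which encodes glutamine synthetase, stood at 487 and 474 CPM against 146 and 102, and Zbtb16, which encodes the zinc finger factor PLZF, at 236 and 156 against 19.7 and 47.6. The 4 °C libraries lay below the 30 °C libraries in each case. Zbtb16 was not called by DESeq2 (log2 fold change -2.60, adjusted p = 0.0932). With cells above the limit on genes let in, Klf9 and Glul were not called (edgeR, log2 fold changes -1.15 and -1.35, adjusted p = 0.140 each), while Tsc22d3 was (log2 fold change -2.68). Without 30 °C replicate 2 Ddit4 was not called (log2 fold change -4.59, adjusted p = 0.106).

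Other members of the list did not pass the test. Fkbp5, the receptor's own co-chaperone, stood at 221 and 167 CPM at 30 °C and 67.0 and 34.0 at 4 °C (edgeR, adjusted p = 0.0944). The metallothionein Mt1 stood at 1217 and 3310 CPM and at 473 and 755 (adjusted p = 0.0747), and Nfkbia, which encodes the NF-κB inhibitor, at 350 and 279 and at 130 and 116 (adjusted p = 0.0944). Nr3c1 itself stood at 129 and 111 CPM and at 154 and 225, and was not called (log2 fold change 0.64, adjusted p = 0.534).

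Neighbouring lists shared members with this one. Of the 6 tested FOXO targets Ddit4 was called, beside 0.764% of all genes lower at 4 °C. All 6 had log2 fold changes below 0, as 1317 of the 2618 genes tested did, with a median of -0.66 beside -0.003. The limit given above for Ddit4 and the filter holds here too. Of the 3 tested clock genes none was called, with the clock repressor Cry2 at the smallest adjusted p, 0.136, and a log2 fold change of -1.79. Cebpd, an early adipogenic factor, stood at 1567 and 1254 CPM at 30 °C and 469 and 803 at 4 °C (log2 fold change -1.15, edgeR, adjusted p = 0.108).

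**Figure D4:**
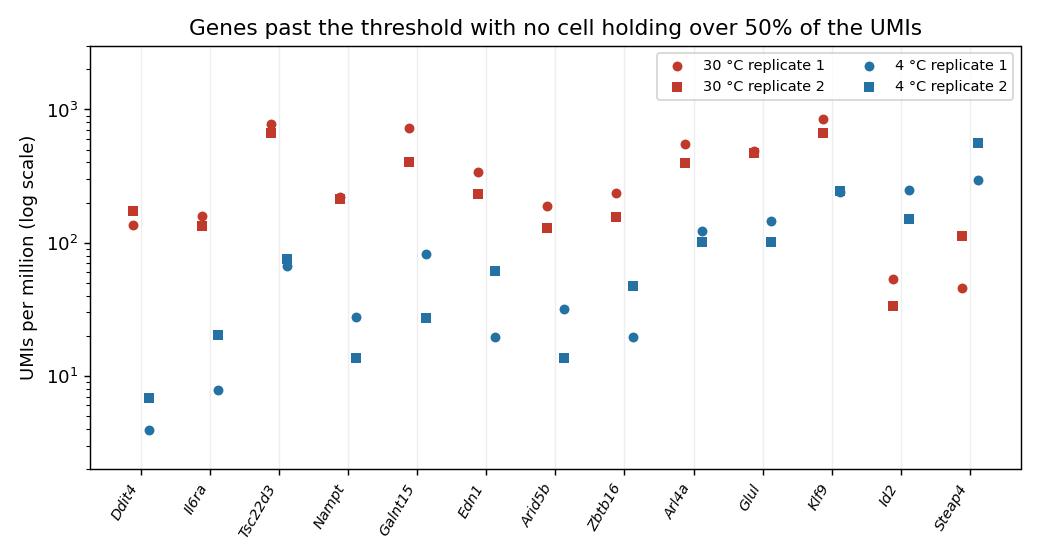
CPM of the stromal cells in each library, on a log axis, for the 13 called genes in which no cell held over 50% of a library's UMIs in the higher group; red is 30 °C, blue 4 °C, circles replicate 1 and squares replicate 2. For every gene the points of the 2 temperatures do not overlap, with Steap4 and Id2 higher and the other 11 lower at 4 °C.

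Further called genes spread over many cells were Nampt, Galnt15, Arl4a, Il6ra, Edn1 and Arid5b, all lower at 4 °C, and these 6 were chosen after their values were seen. Nampt, the rate-limiting enzyme of NAD salvage, stood at 221 and 212 CPM at 30 °C and 27.6 and 13.6 at 4 °C, in 30 cells (log2 fold change -3.22 ± 0.44, SE; edgeR, adjusted p = 0.00984). Galnt15, an enzyme that starts mucin-type sugar chains, stood at 730 and 407 CPM and at 82.8 and 27.2 (adjusted p = 0.0136), with 0.922 CPM in the other cells kept. Edn1 held 45 and 42 UMIs at 30 °C and 5 and 9 at 4 °C, and 95 of its 101 UMIs lay in interstitial-leaning cells. Arl4a, a small GTPase, stood at 555 and 396 CPM and at 122 and 102, and Il6ra, the interleukin-6 receptor, at 160 and 134 and at 7.88 and 20.4. In each of these the 4 °C libraries lay below the 30 °C libraries. The log2 fold change of Il6ra was -3.44, and it was -2.77 without 4 °C replicate 1 and -4.09 without 4 °C replicate 2. Arid5b, a DNA-binding protein of mesenchymal cells, stood at 190 and 128 CPM and at 31.5 and 13.6 (adjusted p = 0.0445), and was not called by DESeq2 (adjusted p = 0.141), with RLE scaling (0.0625) or with no exclusion by immune genes (0.0505).

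Of the 5 genes higher at 4 °C, Steap4 and Id2 were spread over cells. Steap4, a metalloreductase of adipose tissue, stood at 45.6 and 111 CPM at 30 °C and 296 and 558 at 4 °C (log2 fold change 2.36 ± 0.45, SE; edgeR, adjusted p = 0.0396), and 171 of its 183 UMIs lay in committed-leaning cells. Id2, an inhibitor of basic helix-loop-helix factors and a BMP target, stood at 53.2 and 33.4 CPM at 30 °C and 248 and 150 at 4 °C (log2 fold change 2.28 ± 0.45, SE; edgeR, adjusted p = 0.0488). The other cells held more Id2 than the stromal cells, 251 against 138 CPM. Among cells with at least 2000 UMIs neither was called, at adjusted p of 0.0930 and 0.0642, with log2 fold changes of 2.44 and 2.34. Id2 was also not called by DESeq2 (adjusted p = 0.200), nor by edgeR without 30 °C replicate 2 (log2 fold change 1.92, adjusted p = 0.114) or 4 °C replicate 1 (1.82, adjusted p = 0.140). Steap4 was called by DESeq2 and without any 1 library, with a log2 fold change of 3.17 without 30 °C replicate 2, and neither gene was called with RLE scaling (adjusted p = 0.0625 each) or with no exclusion by immune genes (0.234 for Steap4 and 0.208 for Id2).

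The other 12 called genes depended on single cells. In each, 1 cell held over 50% of the UMIs of at least 1 library of the higher group, so the difference between libraries is in part a difference between those cells. They were Fabp4, Ifit1, Ifit3, Rsad2, Iigp1, Mndal, Ifi203, Lgals3 and Thbs1, lower at 4 °C, and Hmcn2, Dmkn and Cilp, higher at 4 °C. Of these, Iigp1, Mndal, Ifi203 and Lgals3 were chosen after their values were seen.

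Fabp4 held 696 and 569 UMIs at 30 °C and 97 and 34 at 4 °C (log2 fold change -3.75 ± 0.33, SE; edgeR, adjusted p = 0.00105). All 696 UMIs of 30 °C replicate 1 lay in 1 cell, the one with 39 UMIs of the blood endothelial list, and Fabp4 is also expressed by capillary endothelium. The 569 UMIs of 30 °C replicate 2 lay in 6 cells, the highest with 268. Without the 3 cells with at least 5 UMIs of the blood endothelial or Schwann list, the log2 fold change was -2.30 and the gene was not called (edgeR, adjusted p = 0.526). Of the 24 called genes still tested without those 3 cells, 22 kept their call. Of the other tested committed genes, Cd36, a fatty acid transporter that capillaries also carry, stood at 312 and 55.7 CPM at 30 °C and 71.0 and 0 at 4 °C (adjusted p = 0.424). All 41 Cd36 UMIs of 30 °C replicate 1 lay in 1 cell, as did 8 of the 10 of 30 °C replicate 2.

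Ifit1, Ifit3 and Rsad2 are genes that type I interferon induces, and their products restrict viral RNA. Ifit1 held 33 and 38 UMIs at 30 °C and 1 and 1 at 4 °C (log2 fold change -5.32 ± 0.55, SE; edgeR, adjusted p = 0.00188), Ifit3 37 and 38 against 3 and 2, and Rsad2 14 and 40 against 1 and 0. In each 30 °C library a single interstitial-leaning cell held nearly all of them, with 80 UMIs of the 3 genes in replicate 1 and 106 in replicate 2. Without these 2 cells the 3 genes had too few UMIs to be tested, and the related Iigp1, Mndal and Ifi203 were no longer called, at log2 fold changes of -0.82, -0.87 and -0.09 (edgeR, adjusted p = 0.563, 0.534 and 0.963). Of the 22 called genes still tested without these cells, 18 kept their call and 4, the related genes among them, did not. In the other cells kept, Ifit1 stood at 15.2 and 3.04 CPM at 30 °C and 13.3 and 8.83 at 4 °C, which overlap.

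The promoters of these 3 genes are shown because the genes were high in the same 2 cells. Each is the 250 bases before the gene's start in RefSeq (GRCm38.p6), 5′ to 3′ on the gene's strand, at chr19:34640639-34640888 (+) for Ifit1, chr19:34583279-34583528 (+) for Ifit3 and chr12:26456453-26456702 (-) for Rsad2. Capitals mark matches to TTTCNNTTT, the core of the element to which interferon-activated factors bind, searched on both strands.
Ifit1: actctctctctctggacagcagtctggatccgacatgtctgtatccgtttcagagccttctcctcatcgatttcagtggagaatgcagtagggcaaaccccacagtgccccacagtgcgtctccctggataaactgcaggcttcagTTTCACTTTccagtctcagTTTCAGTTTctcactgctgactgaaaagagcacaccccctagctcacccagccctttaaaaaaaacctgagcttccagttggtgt
Ifit3: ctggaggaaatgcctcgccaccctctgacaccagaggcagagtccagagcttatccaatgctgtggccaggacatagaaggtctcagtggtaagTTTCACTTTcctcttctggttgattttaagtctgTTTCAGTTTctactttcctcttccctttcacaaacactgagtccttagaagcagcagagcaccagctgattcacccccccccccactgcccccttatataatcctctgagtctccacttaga
Rsad2: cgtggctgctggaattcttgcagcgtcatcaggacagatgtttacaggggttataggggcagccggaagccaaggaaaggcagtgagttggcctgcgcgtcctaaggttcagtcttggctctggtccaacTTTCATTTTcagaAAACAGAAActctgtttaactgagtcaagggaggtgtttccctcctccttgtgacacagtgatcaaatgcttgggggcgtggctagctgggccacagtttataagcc
Each of the 3 held 2 matches, while 9.37% of 32851 promoters of the same length held at least 1. The letters were also in promoters of the called genes Glul, Klf9, Edn1, Mndal and Ifi203, so they were not particular to the 3. A match is a run of letters and not a bound site. For comparison, the letters ACANNNTGT, the core of the glucocorticoid receptor's element, searched on both strands, were found in 5.84% of all promoters, and of the promoters of Tsc22d3, Ddit4, Klf9 and Glul only that of Glul held them. Nothing follows from this for the receptor, whose sites can lie far from a gene's start.

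**Figure D5:**
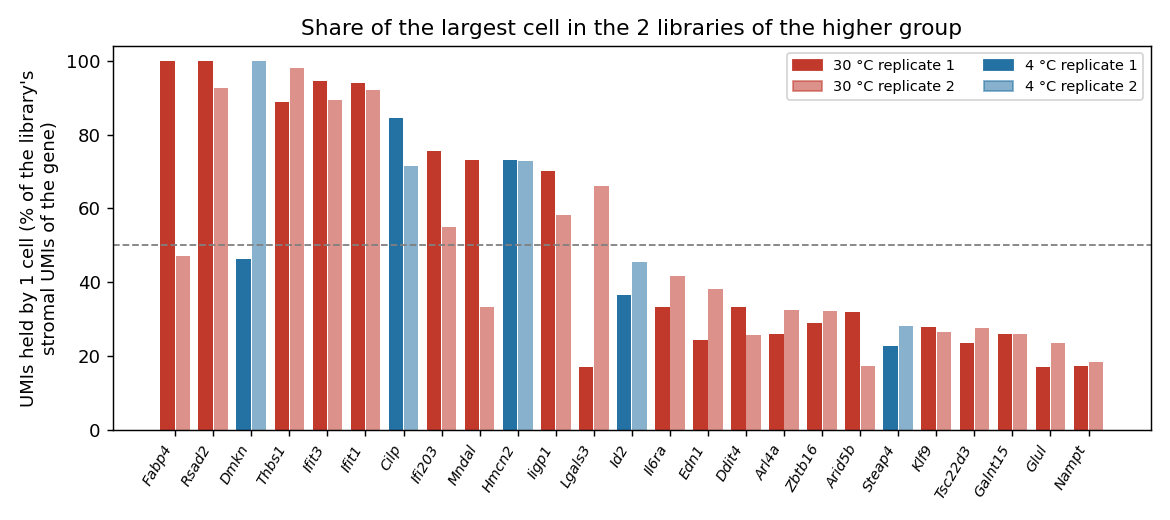
Percentage of a gene's stromal UMIs held by its largest cell, for the 25 called genes, in both libraries of the temperature at which the gene was higher (30 °C red, 4 °C blue, replicate 1 dark and replicate 2 light); bars start at 0 and the dashed line is at 50%. At the left, Fabp4, Rsad2, Thbs1, Ifit1, Ifit3, Cilp and Dmkn reach over 80% in at least 1 library, and at the right 13 genes stay under the line in both.

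Hmcn2, Dmkn and Cilp were higher at 4 °C through few cells. Cilp, a cartilage matrix protein, held 10 and 7 UMIs at 30 °C and 458 and 42 at 4 °C, of which 387 and 30 lay in 1 cell each, and when cells with more genes than the limit were also let in its log2 fold change was 0.78 (edgeR, adjusted p = 0.874). Hmcn2, a hemicentin, held 1 and 7 UMIs and 52 and 44, and was found in 2 and 3 cells at 4 °C. It was likewise not called once those cells were let in (log2 fold change 1.30, adjusted p = 0.331). Dmkn, which encodes dermokine, held 0 and 1 UMIs at 30 °C and 28 and 14 at 4 °C, the 14 in a single cell. It was not called by DESeq2 (log2 fold change 5.03, adjusted p = 0.195) or, in edgeR, with no exclusion by immune genes (log2 fold change 2.12, adjusted p = 0.332). Thbs1, which encodes thrombospondin, held 9 and 53 UMIs at 30 °C, 52 of the latter in 1 cell, and 2 and 1 at 4 °C.

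Of 23 tested genes of the interstitial matrix list, 0 passed, beside 0.955% of all genes, so this count does not set the list apart. In 8 the 4 °C libraries lay above the 30 °C libraries and in 3 below, beside 18.7% and 21.7% of all genes, and the median log2 fold change was 0.25. Sparc, a collagen-binding glycoprotein, stood at 7530 and 7962 CPM at 30 °C and 11452 and 10582 at 4 °C (log2 fold change 0.52 ± 0.13, SE; edgeR, adjusted p = 0.108). Col1a1, the main chain of type I collagen, stood at 8040 and 7160 CPM and at 11834 and 9364 (adjusted p = 0.200). Of the genes of the rule, Col3a1 stood at 14710 and 14520 CPM at 30 °C and 19793 and 19782 at 4 °C. Fn1 had the opposite order, with 5933 and 4223 CPM at 30 °C and 3903 and 2981 at 4 °C, and was not called (adjusted p = 0.329). Of the 9 tested genes of the TGF-beta and BMP list, which control matrix output, Id2 alone was called, higher at 4 °C as 0.191% of all genes were, and the median log2 fold change was -0.31. None of the 9 tested basement membrane genes and none of the 13 tested remodelling genes passed.

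Of 15 tested growth factor and adipokine genes none passed, beside 0.955% of all genes, so a count of 0 does not set the list apart. Igf1, a growth factor of preadipocytes, stood at 327 and 189 CPM at 30 °C and 741 and 592 at 4 °C, without overlap (log2 fold change 1.40 ± 0.33, SE; edgeR, adjusted p = 0.104). Cxcl12 stood at 76.1 and 256 CPM and at 505 and 510 (adjusted p = 0.125), and Ccl11, the chemokine eotaxin, at 221 and 719 and at 497 and 1177 (adjusted p = 0.597). Of 9 tested complement genes 0 passed while the 4 °C libraries lay above the 30 °C libraries in 5 and below in 1, beside 18.7% and 21.7% of all genes tested. C2, an early factor of the classical pathway, stood at 76.1 and 78.0 CPM against 185 and 245 (adjusted p = 0.107). C3, the central complement factor, stood at 3476 and 3304 CPM against 3497 and 3804 (adjusted p = 0.890).

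Immediate early genes, which signals induce within minutes and which tissue digestion can also induce, had 0 calls among 17 tested, beside 0.955% of all genes. In 9 of them the 4 °C libraries lay above the 30 °C libraries and in 3 below, beside 18.7% and 21.7% of all genes tested. Ier2 stood at 190 and 201 CPM at 30 °C and 489 and 497 at 4 °C, just outside the threshold (log2 fold change 1.35 ± 0.27, SE; edgeR, adjusted p = 0.0556). Fos stood at 1141 and 735 CPM and at 1328 and 1096, and overlapped.

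The WNT, matrix remodelling, adipogenic factor, adipogenesis inhibitor, chemokine, heat shock and cold inducible, lipid and sterol synthesis, and hypoxia and glycolysis lists had 0 called genes each, of 5, 13, 6, 2, 6, 8, 3 and 6 tested, and with 0.955% of all genes called these counts do not set the lists apart. Cirbp, the cold-inducible RNA-binding protein, stood at 190 and 83.6 CPM at 30 °C and 78.8 and 68.1 at 4 °C (edgeR, adjusted p = 0.551). No gene of the adipocyte, thermogenic, adrenergic or cholinergic lists had enough UMIs to be tested. The summed adipocyte list held 41 UMIs in all 86 cells, highest for the lipase gene Pnpla2 at 23, and the adrenergic list 64.

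Whether the responses differed from those of other cells of the same libraries was tested as the interaction of cell class and temperature, with library as a factor, in edgeR's quasi-likelihood fit. The fit gives each gene 1 dispersion for both classes, although the stromal sums rest on far fewer cells than those of B cells or macrophages. Its p-values and SE can therefore understate the spread of the stromal sums. Against 9218 B cells, 46 of 12442 genes differed in their response (0.37%), and 14 of the 25 called genes were among them. Against 790 macrophages, defined by C1qa, 123 of 9313 differed (1.32%), with 13 of the 25 among them. The 25 had been chosen by the change in the same stromal sums, which are 1 side of each interaction. A higher share among them than among all genes can follow from that choice and is not support for a response particular to stromal cells. DESeq2 gave 14 of the 25 against B cells and 9 against macrophages. With any 1 library left out, fewer of the 25 differed in either comparison than the 14 and 13 above. Against 61 lymphatic endothelial cells 0 of 3744 differed (0%), where 230 had an unadjusted p under 0.05 and DESeq2 also called 0.

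Tsc22d3 fell in B cells and macrophages too (edgeR within each class, adjusted p = 0.00833 and 4.16e-10). In B cells it stood at 432 and 384 CPM at 30 °C and 121 and 147 at 4 °C, and in macrophages at 1221 and 1084 and at 204 and 193. The fall was larger in stromal cells than in B cells by 1.61 ± 0.36 on the log2 scale (SE; edgeR interaction, adjusted p = 0.00307), and the difference from macrophages was -0.79 ± 0.37 (adjusted p = 0.539). In B cells Ddit4 and Glul were lower at 4 °C as well (log2 fold changes -1.85 and -0.70, edgeR, adjusted p = 0.00833 and 0.0395), and their interactions with B cells were not called (adjusted p = 0.0983 and 0.169). Zbtb16, Klf9, Ddit4 and Glul were lower at 4 °C in macrophages too, with log2 fold changes of -2.97, -3.75, -7.14 and -1.39 there, and Klf9 fell less in stromal cells than in macrophages by 2.12 ± 0.35 (SE; adjusted p = 9.9e-07). Nampt, by contrast, had log2 fold changes of 0.39 in B cells and -0.04 in macrophages, and differed from both (interactions -3.65 and -3.21, adjusted p = 1.85e-08 and 8.3e-07). Id2, which rose in stromal cells, had log2 fold changes of -0.58 and -0.21 in these classes (interactions 2.86 and 2.57, adjusted p = 2.87e-06 and 2.01e-05).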

How the data were processed

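The files hold counts: whole UMIs per gene and cell, which the authors deposited unnormalized, 1 matrix per library, with 31053 genes. Per the file headers and the study's methods, reads were aligned with STAR to mm10 (GRCm38) and counted with Cell Ranger 3.0.0, while the submitters' processing notes list 3.1.0 and Seurat 4.2.0. Seurat objects were not used here. Cells with over 200 and under 5000 genes and under 7.5% of UMIs from mitochondrial genes were kept. The stromal members and the gene lists were chosen with earlier results of these data known.

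UMIs were summed per library over the members and tested with edgeR 4.0.16 (R 4.3.3; TMM, filterByExpr, quasi-likelihood F test, Benjamini-Hochberg, adjusted p of 0.05), with DESeq2 1.42.0 as an alternative. Standard errors were the log2 fold change over the root of F. Shares were compared over libraries by exact permutation (scipy 1.17.1), doublets were called with Scrublet in scanpy 1.11.5, and scripts were tested on simulated data. Cells of 1 library are not replicates, so no test was run over cells.

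Named genes were up to 5 genes that rose most (4 met the rule) and 5 that fell most, of those called with libraries that did not overlap, that held at least 10 UMIs in the higher group and were at least as high as in the other cells, up to 4 members of each list by adjusted p, and all progenitor genes. Gene positions are those of GENCODE M21. The 4 genes Cd3e, Cd79a, C1qa and Ptprc and the 3 genes Dcn, Col1a2 and Col3a1 stayed in the fit and were not tested in the text. Ccl19 and Ccl21a, which occur in several rows, were summed for the lists and not tested. B cells were cells with at least 2 UMIs of Cd79a, macrophages with at least 2 of C1qa, and lymphatic endothelial cells with at least 1 each of Mmrn1 and Cldn5, each without the markers of the other classes and without Dcn.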

Additional observations from a re-analysis of the deposited data

Results flagged for a closer look

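The response to 4 °C differed between the stromal cells and the B cells of the same libraries in 46 genes, and between stromal cells and macrophages in 123, each by the test of the difference itself (edgeR interaction of class and temperature, adjusted p under 0.05). Values below are the stromal minus the other class's log2 fold change, for the called genes among them. The test shares 1 dispersion per gene between the classes and can understate the spread of the stromal sums. For Fabp4 the SE was 0.279 against B cells and 0.280 against macrophages, below the 0.326 of the stromal change alone.

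Of the genes spread over many cells, Nampt had differences of -3.65 against B cells and -3.21 against macrophages, Il6ra -2.90 and -2.98, Arid5b -2.67 and -2.27, and Id2 2.86 and 2.57. Tsc22d3 and Arl4a differed from B cells, by -1.61 and -2.02, and Klf9 from macrophages, by 2.12. Of the genes with over 50% of a library's UMIs in 1 cell, Fabp4 had differences of -1.65 against B cells and -2.66 against macrophages, and Lgals3 -1.59 and -1.51. The interferon-induced Ifit1, Ifit3 and Rsad2, which rested on 2 cells at 30 °C, had the widest differences among these genes, with -6.69 and -6.70 for Ifit1, -5.82 and -5.01 for Ifit3, and -7.07 and -6.03 for Rsad2. The related genes had -2.65 and -4.07 for Iigp1, -1.99 and -2.80 for Mndal, and -1.68 and -2.48 for Ifi203. The part of those 2 cells in the interactions was not tested. For Fabp4, all UMIs of 30 °C replicate 1 lay in the cell with 39 blood endothelial UMIs. The part of that cell in the interactions was not tested either.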

How the results depend on the processing

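The count of genes called between 4 °C and 30 °C was 25, and no called gene changed sign under any of 19 alternatives, in those where it could be tested. It was 130 with no filter on low counts, 7 with the replicate number as a block, and 0 in the committed-leaning cells alone, where 1296 genes were tested and 149 had an unadjusted p under 0.05. Leaving out 1 library at a time gave 47 to 87 calls (87 and 47 without 30 °C replicate 1 and 2, 53 and 84 without 4 °C replicate 1 and 2), with the lone library assumed to vary like the other group. Of the 25, 7 lost their call without 30 °C replicate 2 (Ifi203, Il6ra, Ddit4, Lgals3, Cilp, Id2 and Rsad2, with Thbs1 not tested), 5 without 4 °C replicate 1 (Ifi203, Dmkn, Zbtb16, Id2 and Iigp1) and Ifi203 without 4 °C replicate 2. The fold moved by over 1.5 times, to the log2 values given, without 30 °C replicate 1 for Hmcn2 (2.68), Dmkn (4.10) and Thbs1 (-5.16), without 30 °C replicate 2 for Hmcn2 (4.89), Steap4 (3.17), Dmkn (7.22) and Rsad2 (-5.09), without 4 °C replicate 1 for Il6ra (-2.77), Arid5b (-3.44), Galnt15 (-4.32), Zbtb16 (-1.99), Cilp (2.36), Edn1 (-2.19), Rsad2 (-7.68) and Nampt (-3.89), and without 4 °C replicate 2 for Il6ra (-4.09), Zbtb16 (-3.25), Cilp (5.01) and Edn1 (-3.81). Other alternatives gave 17 to 31 calls. At the mitochondrial limit of 15% Id2 was not called (edgeR, log2 fold change 2.26, adjusted p = 0.0540). DESeq2 did not call Mndal, Ifi203, Dmkn, Arid5b, Lgals3, Zbtb16, Cilp or Id2, and RLE scaling not Ifi203, Thbs1, Steap4, Arid5b, Zbtb16, Cilp or Id2. With no upper limit on genes Glul (-1.35), Klf9 (-1.15), Mndal (-1.15), Ifi203 (-1.10), Iigp1 (-1.45), Lgals3 (-0.70), Hmcn2 (1.30) and Cilp (0.78) were not called, and Tsc22d3 (-2.68), Il6ra (-2.57), Galnt15 (-2.34), Nampt (-2.53), Ifit1 (-4.57) and Ifit3 (-2.84) were called with smaller folds. Iigp1 (-2.90) and Ifit1 (-8.29) had larger folds without reticular chemokine cells, as did Hmcn2 (5.11) in the deeper cells. With no exclusion by immune genes 15 were higher and 16 lower, against 5 and 20, and 14 of the 25 remained, not Thbs1 (-1.71), Dmkn (2.12), Lgals3 (-0.80), Mndal (-1.09), Iigp1 (-1.30), Id2 (1.38), Ifi203, Hmcn2, Steap4, Arid5b or Cilp. Tsc22d3 (-2.70) and Edn1 (-3.61) moved by over 1.5 times and stayed called. Arl4a, Edn1, Galnt15, Nampt and Tsc22d3 were called in all 16 alternatives other than the block and the 2 subsets by lean. Deviations from each gene's temperature mean correlated at 0.0711 between same-numbered libraries over 2618 genes. For crossed numbers the value was -0.0711, its mirror by construction with 2 libraries per group. The replicate block rests on a shared number only, and 6 of the 25 kept their call under it. Of 78 named genes not past the threshold, 31 changed sign under at least 1 alternative. The subsets by lean, by depth, without interferon-rich cells and without cells with other lineage genes were added after the data were seen.

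The interaction with B cells had 46 calls and 16 to 54 without a library. That with macrophages had 123, 38 by DESeq2 and 47 to 84 without a library. That with lymphatic endothelial cells had 0, 28 with no filter on low counts and 18 to 43 without a library, where 6 to 28 such cells a library limit the test. The difference in the stromal share, 4 °C minus 30 °C, was -0.0224 percentage points and became 0.0138 with a mitochondrial limit of 15%, 0.0249 with a stricter rule of at least 5 UMIs of each marker, 0.0795 with no exclusion by immune genes, and -0.0793 to 0.0345 without a library. Differences in the share of cells with a UMI were, thinned and with all UMIs, -10.2 and 16.6 percentage points for Pdgfra, -1.89 and 7.26 for Pi16, and -14.5 and 6.69 for Lpl. The cause of these changes was not tested. Depth limits the fit to 2618 of 31053 genes, and lists of low genes, such as the thermogenic and adrenergic ones, could not be tested.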
